A study of Mus musculus with 3 samples.

Results

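Expression of 9 genes in Alcam+Sca-1- bone-lining cells (BLCs) of the mouse is described here. They encode receptors, ligands, enzymes and structural proteins by which stromal progenitor cells of bone and marrow are recognised: Pdgfra, Pdgfrb, Thy1, Nt5e, Eng, Mcam, Cd200, Ctsk and Nes. They were picked out by gene symbol, and each of the 9 symbols was found once among the 32285 genes of the tables. Although the group is usually called surface markers, the products of Ctsk and Nes are not surface proteins. Femora, tibias and iliac bones of wild-type mice had been digested with type I collagenase after the marrow was flushed out, and Alcam+Sca-1- cells negative for CD45, Ter119 and CD31 had been sorted. Single-cell RNA-seq was carried out with a droplet kit that reads the 3′ ends of transcripts. The 3 libraries, replicates 1, 2 and 3, form 1 group with no other treatment or genotype, so every comparison is between cell classes of the same libraries. The labels name the tissue as bone marrow and give no age, sex, strain or number of animals, so the spread between libraries may in part be technical.

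In bone and marrow, mesenchymal cells supply osteoblasts, cartilage, tendon and the reticular cells that feed haematopoiesis. No single antigen defines their progenitors, and panels of surface proteins are used in their place. Pdgfra and Pdgfrb are receptor tyrosine kinases for platelet-derived growth factors, and in many tissues the former marks fibroblast-lineage cells and the latter pericytes. Thy1 (CD90), Nt5e (CD73) and Eng (CD105) are the classical trio used for cultured mesenchymal stromal cells: a GPI-anchored glycoprotein, the enzyme that makes adenosine from AMP, and a co-receptor for TGF-β family ligands. Mcam (CD146) is an adhesion molecule of pericytes and endothelium, and Cd200 is a ligand that restrains myeloid cells through Cd200r1. Ctsk is the collagen-degrading protease of osteoclasts that also labels periosteal progenitors, and Nes (nestin) is an intermediate filament protein whose reporter has been used to mark perivascular stromal cells.

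All 9 genes are protein coding, and positions are given on build GRCm38, which is the same assembly as mm10. Pdgfra (ENSMUSG00000029231) lies on chromosome 5 at 75152292-75198215 on the plus strand, and Pdgfrb (ENSMUSG00000024620) on chromosome 18 at 61045150-61085061, also on the plus strand. Chromosome 9 carries 3 of the genes on its plus strand: Thy1 (ENSMUSG00000032011) at 44043384-44048579, Mcam (ENSMUSG00000032135) at 44134469-44142727 and Nt5e (ENSMUSG00000032420) at 88327197-88372092. Eng (ENSMUSG00000026814) is on chromosome 2 at 32646595-32682669 on the plus strand, and Cd200 (ENSMUSG00000022661) on chromosome 16 at 45382135-45409053 on the minus strand. Nes (ENSMUSG00000004891, 87971078-87980451) and Ctsk (ENSMUSG00000028111, 95499256-95509362) are both on the plus strand of chromosome 3.

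After removal of poor barcodes and likely doublets, 2476, 6363 and 9393 cells of replicates 1, 2 and 3 remained, with medians of 5618, 9721 and 5815 UMIs (unique molecular identifiers, 1 per captured transcript). Libraries shared between 5 and 24 cell barcodes in each pair. Cells were placed into 14 classes by levels of gate genes, none of which was a member, and 15593 of 18232 cells fell into exactly 1 class. Ungated cells, which passed no gate, made up 31.4%, 5.72% and 6.52% of replicates 1, 2 and 3. In replicate 1 they held from 5.63% (Nes) to 33% (Eng) of the UMIs of a member, which the class values leave out. The mesenchymal classes were CAR-like (Cxcl12-abundant reticular), osteoblast-like, tendon-like, fibroblast-like and mural-like (smooth muscle and pericyte) cells and 4 classes of cartilage-like cells. The 4 are here called Cilp-high, Ibsp-high, chondrocyte-like and Lef1-set. CAR-like cells had to hold both Cxcl12, at 20 or more per 10000 UMIs, and a Lepr UMI. Independent markers were raised more than 2-fold over the median of the other classes for 5 of 5 genes in CAR-like, osteoblast-like, tendon-like, fibroblast-like, mural-like and Schwann-like cells, and for 4 of 5 in Ibsp-high cells. The Lef1-set class was gated on Acan and on at least 2 of Lef1, Notum and Sfrp5. Only 2 of its 4 markers were raised likewise. The Wnt target Axin2 was at 2.86 CPM (counts per 1000000 UMIs) in it against a median of 5.26 CPM in other classes, so the class is named by its gate alone. The 5 fibroblast markers were each higher in some other class. So were Cspg4, Kcnj8 and Abcc9 of the mural-like markers, and Col10a1, Mef2c, Panx3 and Mmp13 of the Ibsp-high markers. Foxc1 (CAR-like), Alpl (osteoblast-like), Postn (tendon-like) and S100b (Schwann-like) were also higher in another class. Replicate 1 stood apart: CAR-like cells made up 21.7% of it against 0.817% and 0.841% of replicates 2 and 3, it held 54 of the 56 mural-like cells, and its ungated cells held 139838 CPM of the antibody gene Igkc. Igkc UMIs also appeared in 79.7% or more of the cells of every class of that library with at least 20 cells, at up to 14641 CPM in its fibroblast-like cells (1 UMI or more), and the source of these UMIs was not tested.

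Pdgfra was shared by CAR-like, osteoblast-like and fibroblast-like cells, Pdgfrb was highest in CAR-like cells, and Ctsk in tendon-like cells. Nt5e was high in all 4 cartilage-like classes. Cd200 was spread over most mesenchymal classes, whereas Mcam was most abundant in mural-like and Schwann-like cells. Nes was highest in the mural-like cells of replicate 1, and its ranges in Schwann-like and Cilp-high cells overlapped. Thy1 and Eng were scarce in nearly all mesenchymal classes.

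**Figure D1:**
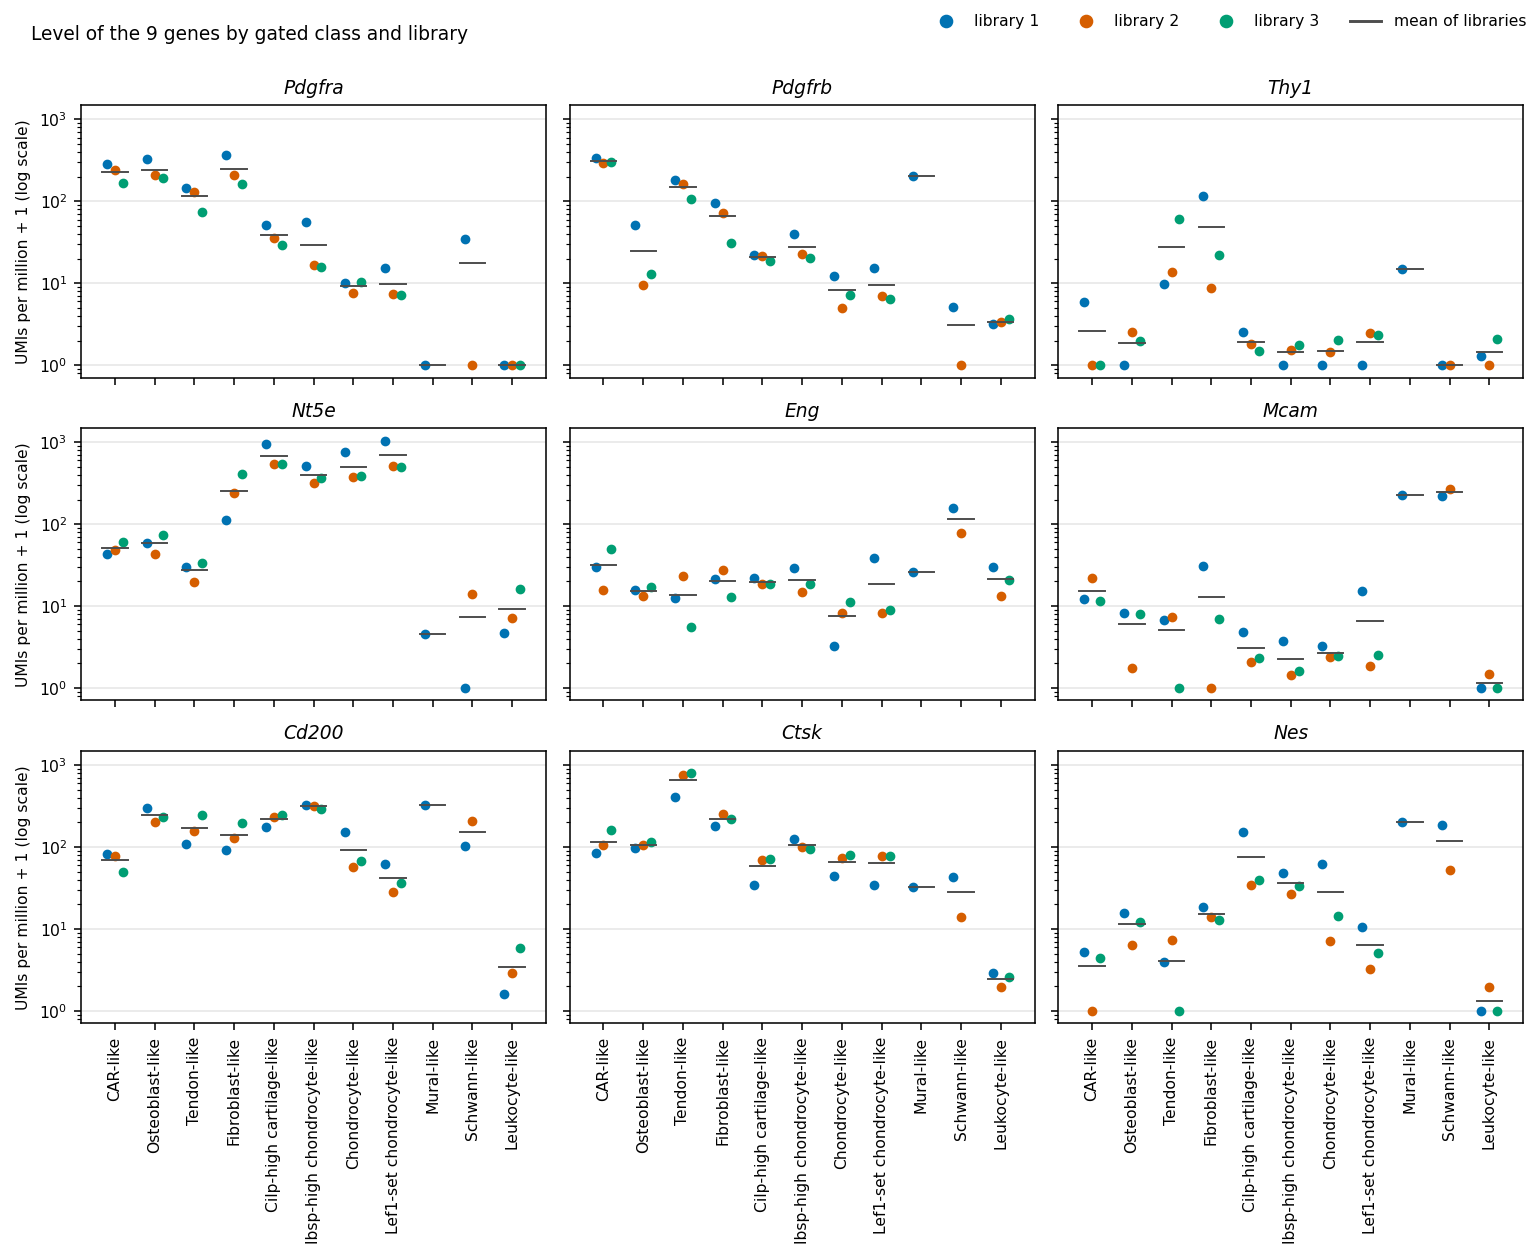
Level of each gene (CPM plus 1, log axis) in 11 gated classes, with 1 point per library of at least 20 cells of the class and a bar at the mean of the libraries. Pdgfrb points of CAR-like cells (291 to 340 CPM) lie above those of all other classes, Ctsk points of tendon-like cells lie above those of all other classes, and Pdgfra is at 0 in mural-like and leukocyte-like cells.

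Leukocyte-like cells were used as a guide to the background from RNA that is not a cell's own. Whether some of them make members other than Eng themselves was not tested, so their shares can overstate that background. Among 391 such cells, whose median depth was 15846 UMIs, no cell held a Pdgfra UMI, which allows a share of up to 0.767%. Their shares were 4.09% for Pdgfrb, 9.21% for Nt5e, 3.58% for Cd200, 2.30% for Ctsk, and below 1% for Thy1, Mcam and Nes. Once each cell had been thinned to 1000 UMIs these fell to at most 1.03%. Eng is itself made by myeloid and endothelial cells, so its 19.2% in leukocyte-like cells is not a background, and 18 of 20 endothelial-like cells held an Eng UMI. Shares and intervals of this kind cover counting error only.

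Pdgfra was measured at 281, 238 and 166 CPM in CAR-like cells of replicates 1, 2 and 3. Osteoblast-like cells held 329, 210 and 193 CPM and fibroblast-like cells 368, 208 and 164 CPM. The ranges of these 3 classes overlapped, so their order (means of 247 ± 108 CPM in fibroblast-like, 244 ± 73.8 in osteoblast-like and 228 ± 57.9 in CAR-like cells; SD, n = 3 here and below unless stated) was within the spread between libraries. Tendon-like cells held less, 144, 129 and 73.7 CPM, and did not overlap with the CAR-like range. Among cartilage-like cells Pdgfra ran from 38.0 ± 11.6 CPM in Cilp-high cells down to 8.34 ± 1.56 CPM in chondrocyte-like cells. No UMI was found in the 54 mural-like cells of replicate 1, which allows up to 5.56% of cells with a UMI and sets no limit on cells that express the gene.

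Without thinning, 60.2% ± 16.3 of fibroblast-like, 56.5% ± 13.9 of CAR-like and 49.9% ± 19.7 of osteoblast-like cells held a Pdgfra UMI. After each cell was thinned to 1000 UMIs, which leaves out 128, 116 and 301 shallower cells in the libraries, the shares were 22.3% ± 8.45, 20.8% ± 4.43 and 19.1% ± 3.11. The ranges of the 3 classes overlapped at both depths. Osteoblast-like cells had a median of 2218 UMIs and CAR-like cells one of 5738.

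Pdgfrb separated the same classes. CAR-like cells held 340, 291 and 302 CPM, above every other class in each library. Tendon-like cells were next among the replicated classes with 179, 164 and 106 CPM, and the single mural-like sum stood between them at 205 CPM (exact Poisson 95% interval 156 to 266). Fibroblast-like cells held 95.8, 71.0 and 29.8 CPM. Osteoblast-like cells, which were among the richest in Pdgfra, held only 51.1, 8.57 and 12.0 CPM of Pdgfrb, from 7, 11 and 12 UMIs, and overlapped with the cartilage-like classes. With thinning, 23.6% ± 2.29 of CAR-like, 14.6% ± 9.21 of tendon-like and 0.433% ± 0.378 of osteoblast-like cells held a Pdgfrb UMI. The last value rests on 0, 2 and 2 cells. The 0.517% in leukocyte-like cells rests on 2 of 387, so these shares are too sparse to be ordered. By level, leukocyte-like cells averaged 2.41 ± 0.25 CPM, below the osteoblast-like value of every library.

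In the test across all genes, the sums of UMIs per class and library were compared between 8 mesenchymal classes with edgeR's quasi-likelihood test, with the library as a block. A fold change is the mean log2 level of a class minus the unweighted mean log2 level of the other classes, so it sets a class against a geometric mean. It also carries TMM scaling, which the CPM values do not. CAR-like cells had more Pdgfrb than the other mesenchymal classes by 3.46 ± 0.16 on the log2 scale (SE; adjusted p = 1.06e-15, edgeR) and more Pdgfra by 1.99 ± 0.17 (adjusted p = 2.09e-10, edgeR), each in 3 of 3 libraries. In osteoblast-like cells Pdgfra was higher by 2.65 ± 0.15 (adjusted p = 1.45e-13, edgeR), in 3 of 3 libraries. For Pdgfrb the same contrast was -0.99 ± 0.30 (adjusted p = 0.00982, edgeR), but osteoblast-like cells of replicate 1 were not lower, and the call was lost without replicate 2 (-0.51, adjusted p = 0.375) and without replicate 3 (-0.87, adjusted p = 0.149).

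The cartilage-like classes together had less of both receptors than the other 4 classes, by -3.38 ± 0.13 for Pdgfra (adjusted p = 3.83e-16, edgeR) and -2.51 ± 0.16 for Pdgfrb (adjusted p = 2.25e-12, edgeR), with 0 of 3 libraries higher. In fibroblast-like cells Pdgfra was higher by 2.19 ± 0.17 (adjusted p = 8.17e-10, edgeR). Their Pdgfrb passed too (0.98 ± 0.24, adjusted p = 0.00568, edgeR), but not without replicate 1 (0.82, adjusted p = 0.0599) or replicate 2 (0.71, adjusted p = 0.234). Tendon-like cells were higher in Pdgfrb by 2.28 ± 0.21 (adjusted p = 3.75e-09, edgeR) and in Pdgfra by 0.90 ± 0.21 (adjusted p = 0.00254, edgeR), and the latter was lost without replicate 2 (0.68, adjusted p = 0.154). Set against CAR-like cells directly, tendon-like cells had less Pdgfrb (-1.03 ± 0.24, adjusted p = 0.00187, edgeR) and less Pdgfra (-0.96 ± 0.25, adjusted p = 0.00656, edgeR). These 2 calls were not kept in smaller sets of libraries: Pdgfrb was lost without replicate 3 (-0.83, adjusted p = 0.145), and Pdgfra without replicate 2 (-1.01, adjusted p = 0.0712) or replicate 3 (-0.87, adjusted p = 0.108) and without the library block (-0.97, adjusted p = 0.0554).

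Patterns over 31 class sums were compared by Pearson r of log2(CPM + 10) among 10746 genes. The gene most like Pdgfra was Wnt9a (r = 0.927), and Ptprg (0.912) was also among the closest. For Pdgfrb they were Gas6 (0.934), C1s1 (0.928) and Serping1 (0.923). The 2 receptors had r = 0.664 with each other. The 31 sums share libraries and gates, so these values describe the pattern only.

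Both receptors were found together in 50.2%, 50% and 29.1% of CAR-like cells of the 3 libraries. The product of the 2 single shares was 45.5%, 47.6% and 24.6%, so in each library cells with both were somewhat more common than that product. Depth differs between cells of a class, which by itself can lift joint detection above the product, and its part was not tested. Of the cells with both, 270 of 400 in replicate 1 were CAR-like. In replicates 2 and 3 no single class held most of the 198 and 153 such cells, which made up 3.11% and 1.63% of all cells against 16.2% in replicate 1. Pdgfra with Itgav (integrin αv) was found in 29.3% ± 7.84 of CAR-like, 25.1% ± 13.4 of fibroblast-like and 18.1% ± 18.6 of osteoblast-like cells. The osteoblast-like mean rested on replicate 1, where 11 of 28 cells held both (39.3%, against 10.2% and 4.77%). After thinning the means were 3.45% ± 1.72, 0.597% ± 1.03 and 1.21% ± 1.215. The fibroblast-like mean came from 0, 1 and 0 cells and the osteoblast-like one from 0, 7 and 4, so their order is not resolved. Pdgfra with Ly6a, the gene of Sca-1, against which the cells had been sorted, was found in 6.43% ± 4.24 of fibroblast-like cells, and the mean of each other class was at or below 1.40%.

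The genes for ligands of these receptors were read from the same sums. Pdgfd rose in osteoblast-like cells by 4.42 ± 0.21 (adjusted p = 2.36e-14, edgeR) and Pdgfc by 3.28 ± 0.42 (adjusted p = 9.13e-06, edgeR), each in 3 of 3 libraries. Osteoblast-like cells averaged 308 CPM of Pdgfd and 87.0 CPM of Pdgfc over the 3 libraries, and the geometric mean of the other classes, averaged likewise, was 14.5 and 15.7 CPM. In CAR-like cells Pdgfc fell by 5.04 (SE 0.93, adjusted p = 0.000287, edgeR) and was at 1.66 CPM. Pdgfc was higher in tendon-like than in CAR-like cells by 4.94 ± 1.30 (adjusted p = 0.00987, edgeR).

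Ctsk was the member that set tendon-like cells apart. They held 405, 759 and 793 CPM, from 138, 241 and 172 UMIs, and no other class reached 405 CPM in any library. Fibroblast-like cells followed with 179, 255 and 221 CPM and CAR-like cells with 82.7, 104 and 160 CPM. Thinned to 1000 UMIs, 33.3%, 48.8% and 55.3% of tendon-like cells held a Ctsk UMI, and 75.4%, 97.6% and 89.4% did without thinning. In fibroblast-like cells the thinned mean was 16% ± 4.55, and in CAR-like cells 9.45% ± 2.03. Tendon-like cells were above the other mesenchymal classes by 2.46 ± 0.14 (adjusted p = 3.34e-13, edgeR) and above CAR-like cells by 2.50 ± 0.22 (adjusted p = 5.14e-09, edgeR), in 3 of 3 libraries each. Fibroblast-like cells were above the other classes by 0.80 ± 0.16 (adjusted p = 0.00107, edgeR), a call that was lost without replicate 2 (0.83, adjusted p = 0.0624) and without the library block (0.76, adjusted p = 0.0517). Cartilage-like cells were below the others by -1.25 ± 0.11 (adjusted p = 5.50e-10, edgeR).

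Osteoclast genes were looked at in the same cells because Ctsk is best known from osteoclasts. Of 6 osteoclast genes (Acp5, Mmp9, Atp6v0d2, Calcr, Ocstamp and Dcstamp), only Acp5 had enough counts to be tested. It passed in 0 of 6 contrasts with edgeR, in 1 at an unadjusted p under 0.05 (edgeR) and in 1 with DESeq2, the last 2 being the tendon-like one, in which it was higher by 1.97 ± 0.72 (adjusted p = 0.0556, edgeR). Among the 43, 40 and 42 tendon-like cells with a Ctsk UMI, none held UMIs of 2 or more of these genes, and 1, 5 and 4 held a UMI of any. Acp5 was the most frequent of them in tendon-like cells, with 0, 10 and 4 UMIs. Gnas (r = 0.914), Olfml3 (0.907) and Nfix (0.905) had the patterns most like that of Ctsk.

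Thy1 was found in few cells. Its 271 UMIs came from 202 cells, and 1.45% ± 0.95 of all cells of a library held one. Fibroblast-like cells held 116, 7.89 and 20.9 CPM, from 46, 3 and 7 UMIs, and tendon-like cells 8.79, 12.6 and 59.9 CPM, from 3, 4 and 13 UMIs. Fibroblast-like cells were the highest class in replicate 1 and tendon-like cells in replicates 2 and 3, so their order changed with the library. CAR-like cells held 16 UMIs in replicate 1 (4.85 CPM) and none in replicates 2 and 3. Each cartilage-like class and the osteoblast-like class stayed at or below 1.57 CPM in every library. Ccn3 (r = 0.885), Gpc3 (0.842) and Etv4 (0.816) had the patterns most like that of Thy1.

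Fitted differences for Thy1 rested on these few counts. Where a class held no UMI they depend on the prior count of the fit and are no bound. Thy1 was higher in fibroblast-like than in other mesenchymal cells by 4.15 ± 0.53 (adjusted p = 3.77e-06, edgeR), or by 4.81 without replicate 2. In tendon-like cells it was higher by 3.10 ± 0.71 (adjusted p = 0.00239, edgeR), or by 4.92 without replicate 1. In each of these classes the replicate left out was the one with the lowest Thy1 level. Against CAR-like cells the tendon-like value was 3.19 ± 0.90 (adjusted p = 0.0105, edgeR), which did not pass without replicate 2 (3.17, adjusted p = 0.0856) and was 10.36 without replicate 1, where CAR-like cells held no UMI. Cartilage-like classes were lower by -2.61 ± 0.68 (adjusted p = 0.00217, edgeR), and without replicate 1 the value was -0.88 with an adjusted p of 0.997.

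Nt5e, the gene of CD73, was highest in the cartilage-like classes, where Pdgfra was low. Lef1-set cells held 1045, 516 and 504 CPM and Cilp-high cells 952, 540 and 539 CPM. Chondrocyte-like cells held 752, 380 and 383 CPM, and Ibsp-high cells 518, 315 and 362 CPM. The ranges of the 4 classes overlapped, and replicate 1 was the highest library in each. Fibroblast-like cells held 111, 237 and 409 CPM and were the only class outside cartilage above 100 CPM. CAR-like, osteoblast-like and tendon-like cells stayed between 18.9 and 72.2 CPM. At equal depth 43.1% ± 8.13 of Cilp-high cells and 20.7% ± 10.8 of fibroblast-like cells held an Nt5e UMI, against 4.82% ± 0.97 of CAR-like and 3.14% ± 0.91 of osteoblast-like cells.

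Cartilage-like classes exceeded the other 4 classes in Nt5e by 3.29 ± 0.22 (adjusted p = 1.48e-10, edgeR), in 3 of 3 libraries. Nt5e was lower in tendon-like cells by -3.56 ± 0.46 (adjusted p = 6.92e-06, edgeR), in CAR-like cells by -2.64 ± 0.39 (adjusted p = 1.30e-05, edgeR) and in osteoblast-like cells by -1.66 ± 0.36 (adjusted p = 0.000974, edgeR). The osteoblast-like call was lost without replicate 2 (-1.61, adjusted p = 0.0648), and when cells that passed 2 gates were kept the tendon-like value moved to -1.46 (adjusted p = 0.0473). Fibroblast-like cells did not differ from the others at the threshold (0.35 ± 0.30, adjusted p = 0.530, edgeR), though they did without replicate 1 (0.74, adjusted p = 0.00878, edgeR). Over the class sums Nt5e was most like Sox9 (r = 0.952), the transcription factor of chondrocytes, then Colgalt2 (0.951) and Zfp385b (0.937).

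Eng was low throughout the mesenchymal classes. CAR-like cells held 29.1, 14.9 and 48.5 CPM, and the means of the other mesenchymal classes ranged from 6.57 ± 3.99 CPM in chondrocyte-like to 24.8 CPM in mural-like cells, with neighbouring ranges that overlapped. Eng passed the adjusted threshold in 0 of 6 contrasts with edgeR and 0 with DESeq2, and in 1 at an unadjusted p under 0.05 (edgeR). The closest was the CAR-like one, at 0.61 ± 0.29 (adjusted p = 0.0964, edgeR) and higher in 3 of 3 libraries. Outside the mesenchymal classes, Schwann-like cells held 155 and 77.3 CPM in replicates 1 and 2, from 37 and 6 UMIs. The 16 Schwann-like cells of replicate 3 held 0 UMIs of Eng. The 20 endothelial-like cells held 1084 CPM. The closest patterns to Eng were those of Gdnf (r = 0.80), Secisbp2l (0.787) and Taok1 (0.783).

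The 3 genes used together for cultured stromal cells were hardly ever found in one cell. Thy1, Nt5e and Eng were all detected in 4, 5 and 5 cells of the 3 libraries, 0.162%, 0.0786% and 0.0532% of all cells. None of these was a CAR-like, osteoblast-like, tendon-like or fibroblast-like cell. At this depth, where Thy1 reached a UMI in at most 30.2% of the cells of any class and library of 20 cells or more, the combination cannot be called absent.

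Mcam was low per cell in the replicated mesenchymal classes and high in mural-like and Schwann-like cells. The mural-like cells of replicate 1 held 227 CPM from 64 UMIs (exact Poisson 95% interval 175 to 289), and 34 of 54 held a UMI (63.0%, exact binomial 95% interval 48.7% to 75.7%). Schwann-like cells held 218 and 271 CPM in replicates 1 and 2. CAR-like cells held 11.2, 20.8 and 10.4 CPM, and fibroblast-like cells 30.3, 0 and 5.97 CPM. The remaining mesenchymal classes averaged 5.55 CPM or less. By number of UMIs, mural-like cells held the most in replicate 1 (28.8%), whereas in replicates 2 and 3 the numerous chondrocyte-like cells did (28.7% and 24.1% of 108 UMIs each). Cartilage-like classes had less Mcam than the other 4 by -1.83 ± 0.51 (adjusted p = 0.00379, edgeR), a call lost without replicate 3 (-1.58, adjusted p = 0.0942). In CAR-like cells the difference of 1.39 ± 0.57 missed the threshold (adjusted p = 0.0525, edgeR) and passed it without replicate 1 (2.82, adjusted p = 0.00188) and without the library block (2.03, adjusted p = 0.00557).

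Nes resembled Mcam in mural-like cells and differed from it in cartilage. Mural-like cells of replicate 1 held 202 CPM from 57 UMIs, and 26 of 54 held a UMI (48.2%, exact binomial 95% interval 34.3% to 62.2%). Schwann-like cells held 184 and 51.5 CPM in replicates 1 and 2, from 44 and 4 UMIs. Cilp-high cells held 153, 33.3 and 38.8 CPM and Ibsp-high cells 47.5, 25.7 and 32.3 CPM. In CAR-like cells only 14, 0 and 1 UMIs were counted (4.24, 0 and 3.47 CPM), and tendon-like cells held 1, 2 and 0. Cilp-high cells held 61.3% of the Nes UMIs of replicate 1, and Ibsp-high cells held 40.5% and 41.0% of those of replicates 2 and 3.

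Cartilage-like classes were higher in Nes by 2.22 ± 0.34 (adjusted p = 8.41e-06, edgeR), in 3 of 3 libraries, and the members of that group were not alike, since Lef1-set cells averaged 5.28 ± 3.76 CPM. CAR-like cells were lower by -3.04 ± 0.64 (adjusted p = 0.000465, edgeR), with 0 of 3 libraries higher, and without the library block this was -2.15 with an adjusted p of 0.0865. Mcam and Nes were found together in 20 of the 54 mural-like cells, and in 40, 4 and 7 cells of the 3 libraries in all. The genes most like Mcam were Prdm16 (r = 0.924), Pcdh1 (0.922) and Itga7 (0.920). For Nes they were Hr (0.823), Synm (0.779) and Ntn4 (0.769).

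Cd200 was found in all mesenchymal classes. Ibsp-high cells held 328, 317 and 290 CPM, osteoblast-like cells 299, 203 and 235 CPM and Cilp-high cells 174, 232 and 246 CPM. Tendon-like cells held 109, 154 and 244 CPM and fibroblast-like cells 90.8, 129 and 197 CPM, and in both the lowest library was replicate 1. CAR-like cells were low, with 80.6, 77.2 and 48.5 CPM, as were Lef1-set cells with 61.7, 27.3 and 34.9 CPM. The mural-like sum was at 329 CPM, next to the Ibsp-high class. Thinned to 1000 UMIs, 26.0% ± 2.59 of Ibsp-high, 21.3% ± 7.66 of osteoblast-like and 6.41% ± 1.41 of CAR-like cells held a UMI.

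Cd200 was higher in osteoblast-like cells by 1.23 ± 0.24 (adjusted p = 0.000309, edgeR) and lower in CAR-like cells by -1.29 ± 0.30 (adjusted p = 0.00145, edgeR), each in the same direction in all 3 libraries. Tendon-like cells exceeded CAR-like cells by 1.22 ± 0.39 (adjusted p = 0.0257, edgeR), which was lost without replicate 2 (1.36, adjusted p = 0.136) and without replicate 3 (0.78, adjusted p = 0.314). The cartilage-like group as a whole was not called (0.01 ± 0.18, adjusted p = 0.964, edgeR), and it joins high Ibsp-high with low Lef1-set cells. Ckb (r = 0.860), Tob1 (0.855) and Pls3 (0.850) had the closest patterns.

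A combination used for skeletal stem cells, Itgav and Cd200 without Thy1, Enpep or Eng (Enpep encodes the 6C3 antigen), was read cell by cell. It was met by 11.8%, 26.3% and 19.6% of all cells. Ibsp-high cells met it most often, in 37.1%, 48.9% and 38.5% of cells, against 40.5%, 48.0% and 38.2% from the product of the single shares, and they held 630 of 1672 and 849 of 1840 such cells in replicates 2 and 3. In replicate 1 Cilp-high cells held the most, 85 of 293, and Ibsp-high cells 36. At equal depth 3.86% ± 0.67 of Ibsp-high cells met it after thinning, from 3, 55 and 92 cells. Schwann-like cells stood at 4.27% ± 1.04 (n = 2), from 3 of 85 and 1 of 20 cells. The order of these 2 classes is therefore not resolved. The absence of a UMI does not show absence of the protein.

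**Figure D2:**
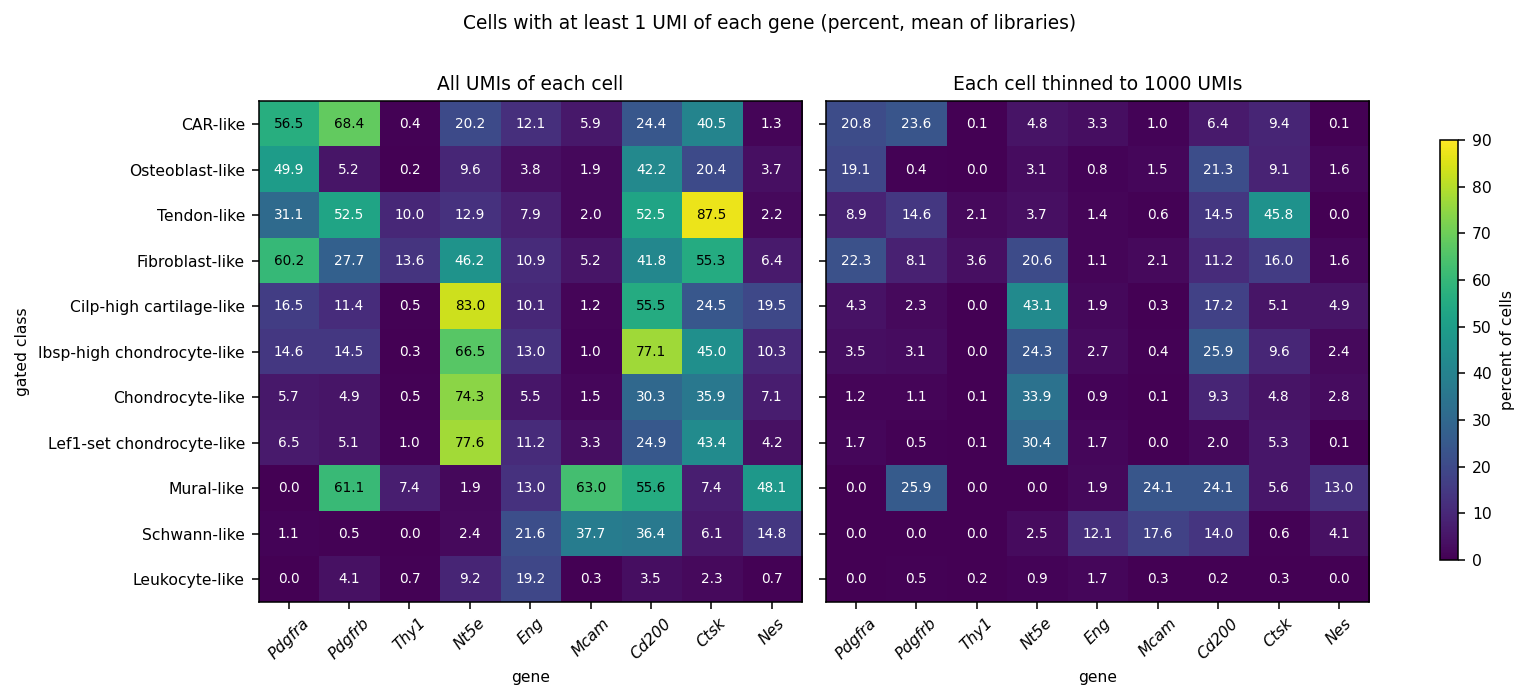
Percent of cells with at least 1 UMI of each gene by class, as the mean of the libraries with at least 20 cells, with all UMIs (left) and after each cell was thinned to 1000 UMIs (right). Ctsk in tendon-like cells falls from 87.5% to 45.8% and remains the highest value of the right panel, and Thy1 is at 3.6% or less in every class after thinning.

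Members were then counted against all genes tested. In each contrast all 9 members were among the 10632 genes with enough counts. In CAR-like cells 2 members were higher and 3 lower, against 41.6% of all genes called in either direction. In osteoblast-like cells 2 were higher and 2 lower (39.9% of all genes), and in tendon-like cells 4 were higher and 1 lower (18.8%). In fibroblast-like cells 4 were higher and 0 lower with edgeR, with 12.8% of all genes called (0 lower also with DESeq2 and at an unadjusted p under 0.05). Cartilage-like classes had 2 members higher and 5 lower (56.9%), and tendon-like against CAR-like cells 3 higher and 2 lower (21.7%). In CAR-like, osteoblast-like and cartilage-like contrasts a large part of all genes was called, so the counts say little about the members beyond the sizes given above. The median log2 difference of the members was -0.40, 0.27, 0.10, 0.80, -1.25 and -0.81 in the 6 contrasts in this order, and that of all genes lay between -0.06 and 0.04.

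**Figure D3:**
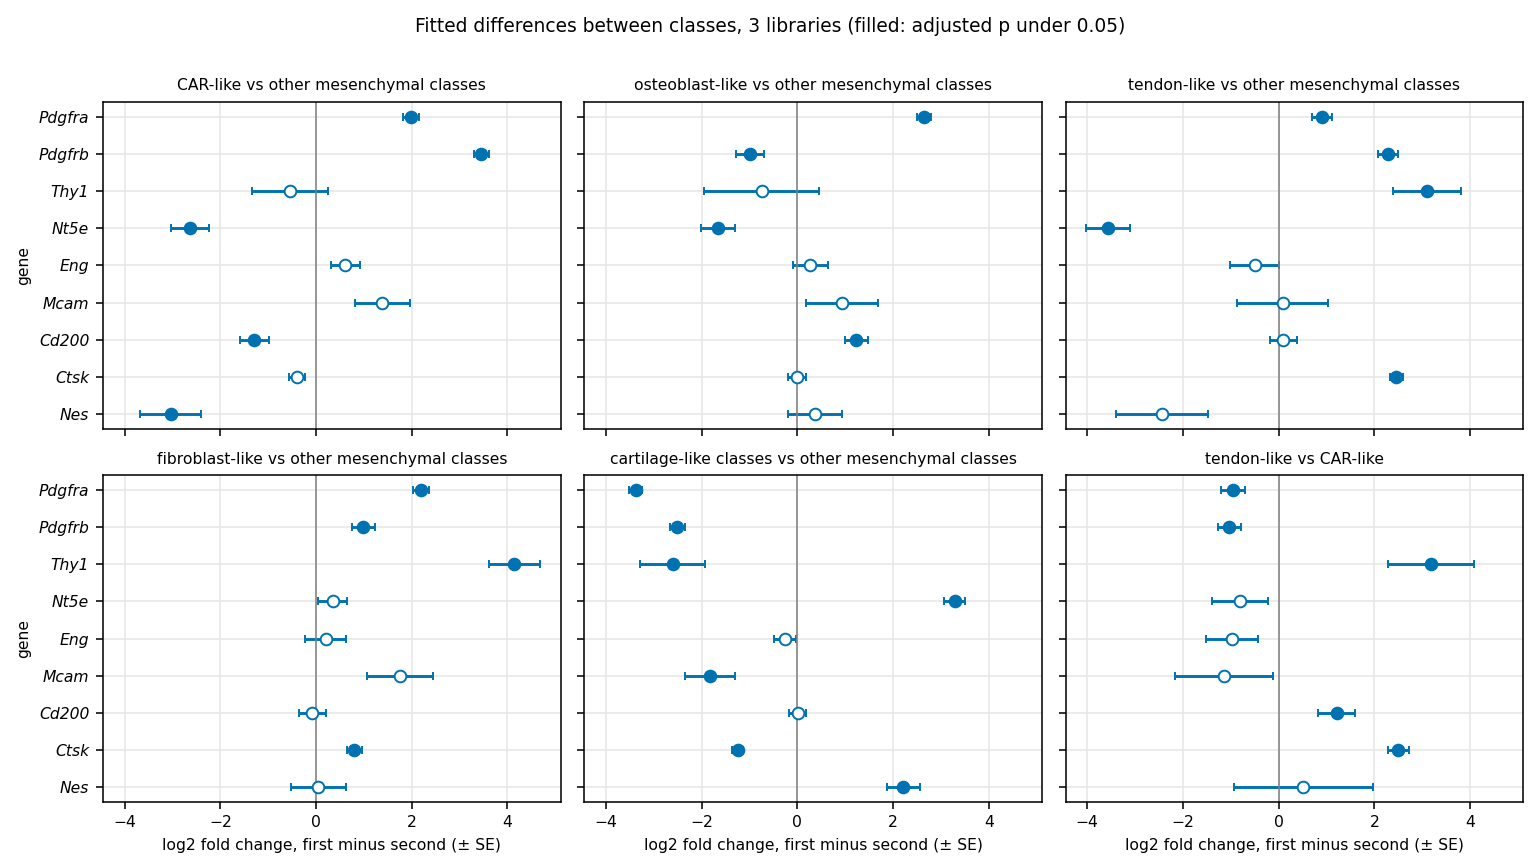
Fitted log2 fold changes (± SE, n = 3 libraries) of the 9 genes in 6 contrasts between gated classes, with filled circles for an adjusted p under 0.05. Pdgfra and Pdgfrb lie to the right in CAR-like cells (1.99 and 3.46) and to the left in cartilage-like classes (-3.38 and -2.51), and Nt5e lies on the opposite side in both.

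Other stromal antigens gave the setting. Of 20 companion genes used as stromal or progenitor markers, 18 were tested. The share of all genes called was 41.6% in the CAR-like, 39.9% in the osteoblast-like and 18.8% in the tendon-like contrast. In CAR-like cells 7 were higher and 7 lower. Vcam1, an adhesion molecule for haematopoietic cells, was higher by 8.59 ± 0.48 (adjusted p = 7.98e-10, edgeR) and Grem1, a BMP antagonist, by 4.91 ± 0.25 (adjusted p = 2.58e-12, edgeR), whereas Pdpn (podoplanin) was lower by -6.63 ± 0.80 (adjusted p = 7.00e-07, edgeR). In osteoblast-like cells 3 were higher and 5 lower, among the latter Anpep (-2.67 ± 1.01, adjusted p = 0.0375, edgeR) and Grem1 (-2.65 ± 0.60, adjusted p = 0.00148, edgeR). Tendon-like cells had 6 higher and 2 lower, led by Itga8, the gene of integrin α8 (4.12 ± 0.28, adjusted p = 2.09e-11, edgeR), and by Anpep (3.25 ± 0.46, adjusted p = 6.44e-06, edgeR). The tendon-like gate asked for at least 2 of Tnmd, Mkx, Scx, Mfap4, Kera and Chodl. The paper reports Mfap4, Kera, Tnmd and Chodl as enriched in the same cluster of Alcam+ cells as Itga8. The Itga8 rise is therefore not independent of the gate. Cspg4 (NG2) and Itgav were lower in tendon-like cells, by -3.14 ± 0.29 (adjusted p = 6.08e-09, edgeR) and -1.13 ± 0.25 (adjusted p = 0.00177, edgeR).

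Of all genes, 12.8% were called in the fibroblast-like contrast, 56.9% in the cartilage-like one and 21.7% between tendon-like and CAR-like cells. Fibroblast-like cells had 6 companions higher and 1 lower. Cd248 (endosialin) rose by 4.79 ± 0.69 (adjusted p = 1.76e-05, edgeR) and Ly6a by 3.30 ± 0.33 (adjusted p = 5.78e-08, edgeR), and Grem1 fell by 2.04 (SE 0.63, adjusted p = 0.0371, edgeR). Ly6a averaged 73.5 CPM over the 3 libraries in these cells although Sca-1 protein had been sorted against. Cartilage-like classes had 6 higher and 8 lower: Cspg4 (3.20 ± 0.13, adjusted p = 9.07e-16, edgeR) and Itga6 (1.73 ± 0.27, adjusted p = 7.11e-06, edgeR) were highest by fold, and Cd248 (-4.58 ± 0.81, adjusted p = 3.04e-05, edgeR) and Vcam1 (-3.50 ± 0.87, adjusted p = 0.00308, edgeR) lowest. Between tendon-like and CAR-like cells 5 were higher and 4 lower, with Pdpn at 7.26 ± 0.91 (adjusted p = 4.16e-06, edgeR), Vcam1 at -7.47 ± 1.09 (adjusted p = 0.000116, edgeR) and Grem1 at -4.04 ± 0.46 (adjusted p = 1.78e-06, edgeR).

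Of all genes, 41.6%, 39.9%, 18.8%, 12.8%, 56.9% and 21.7% were called in the contrasts, in the order used below. Of 13 genes for ligands, receptors and enzymes that act with the members, 7 were tested. They were called higher and lower in 3 and 2 cases in CAR-like cells, 2 and 2 in osteoblast-like cells, 3 and 0 in tendon-like cells, 2 and 0 in fibroblast-like cells, 1 and 3 in cartilage-like classes and 2 and 0 between tendon-like and CAR-like cells. At an unadjusted p under 0.05 the 3 counts of 0 were 0, 1 and 0 in edgeR, and with DESeq2 they were also 0, 1 and 0. Acvrl1, which signals with Eng, was higher in CAR-like cells by 2.42 ± 0.36 (adjusted p = 4.67e-06, edgeR) with a mean of 18.2 CPM over the 3 libraries, and was chosen for mention after its values were seen.

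Where the UMIs of a gene came from changed with the make-up of the library. CAR-like cells held 52.5% of the Pdgfra and 66.7% of the Pdgfrb UMIs of replicate 1. In replicates 2 and 3 the cartilage-like classes, though low per cell, gave most of the Pdgfrb UMIs, with 27.7% and 31.7% in Ibsp-high cells alone. Fibroblast-like cells held 42.2% of the Thy1 UMIs of replicate 1 but 4.17% and 7.78% in replicates 2 and 3, where Lef1-set (37.5%) and chondrocyte-like cells (21.1%) respectively held the most. Over all cells, Pdgfra was found in 29.9%, 14.9% and 10.3% and Nt5e in 31.4%, 70.6% and 61.8% of the cells of replicates 1, 2 and 3, next to CAR-like shares of 21.7%, 0.817% and 0.841%. Shares taken over whole libraries therefore differed by more than 2-fold between replicates for both genes, and the part of library make-up in this was not tested beyond the class values above.

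**Figure D4:**
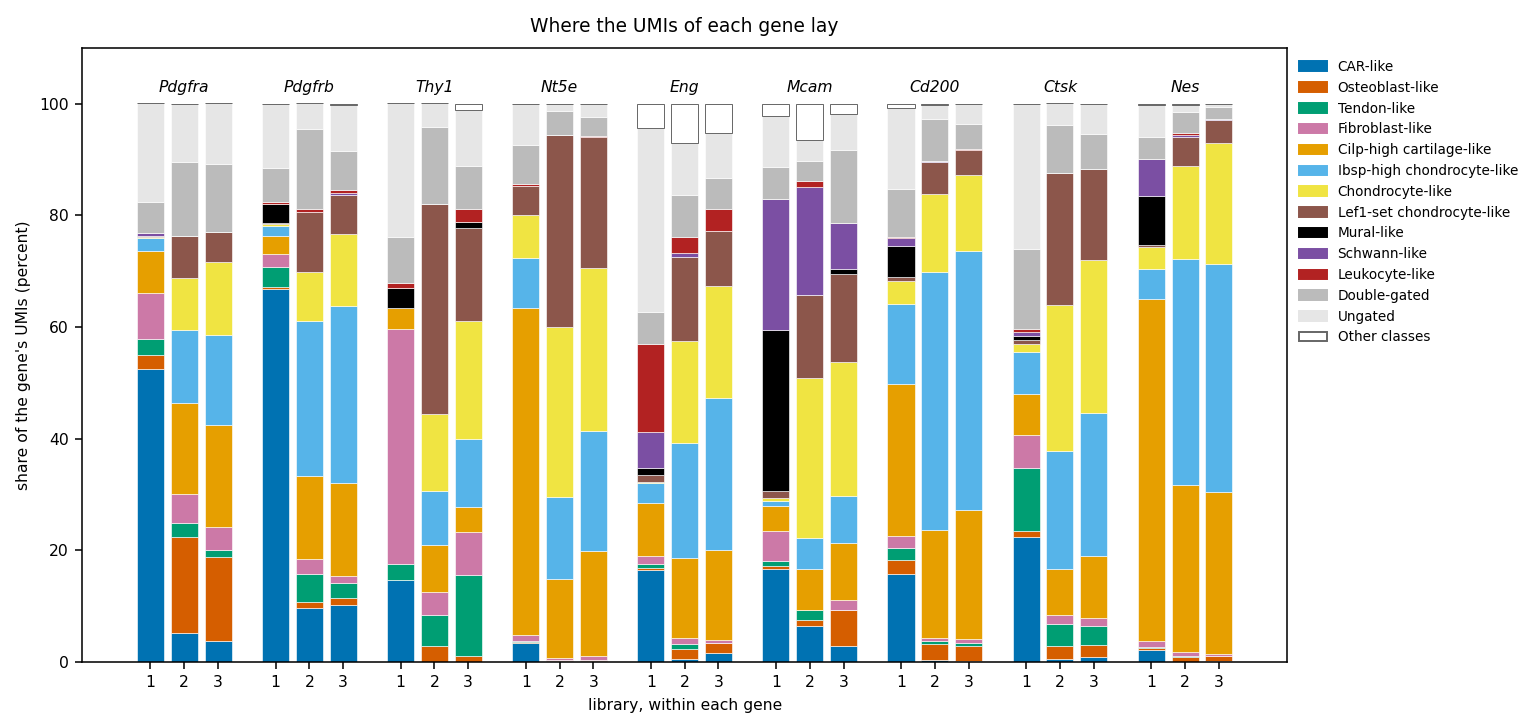
Share of each gene's UMIs (percent) that lay in each gated class, in 3 bars per gene for libraries 1, 2 and 3; grey parts are cells that passed 2 gates or none, and white parts are other classes. CAR-like cells hold 66.7% of Pdgfrb UMIs in library 1 and at most 10.1% in the others, and the 4 cartilage-like classes hold most Nt5e UMIs in every library.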

How the data were processed

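Alcam+Sca-1- BLCs of 3 libraries (replicates 1 to 3, as the labels number them) were analysed. The authors deposited UMI counts per gene and cell barcode, made per the submitters' processing notes with Cell Ranger 7.1.0 on mm10. The study states a larger number of cells than the 20307 barcodes of these tables. Libraries held 20985636, 79905165 and 69890252 UMIs.

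From these counts, barcodes with fewer than 200 genes or over 20% mitochondrial UMIs were removed (825), as were predicted doublets (1250; 0.8% per 1000 cells, scanpy 1.11.5). Cells were gated on fixed genes per 10000 UMIs, and those passing 2 gates (885) or none (1754) were set aside. Sums per class and library of at least 20 cells (24 sums, 8 classes) were compared with edgeR 4.0.16 in R 4.3.3 (quasi-likelihood test, TMM, filterByExpr, robust, library as block), with Benjamini-Hochberg adjustment over all 10632 genes tested and a threshold of 0.05. Mural-like cells lacked replicates and were only described. Intervals are exact (95%) and, as the limit of 3 counts behind a 0, cover counting error only. A library is 1 sample, and cells are not replicates. Thinning drew 1000 UMIs per cell without replacement.

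The numbers pair sums, since sums of 1 number come from 1 library. Deviations from class means correlated within libraries (84 pairs, median r = 0.226, lowest 0.0917, highest 0.600). Between libraries the median was -0.184 (192 pairs, lowest -0.967, highest 0.839). Since class means were taken from the same sums, deviations of 1 class in different libraries lean to opposite signs. The negative median is thus partly built in.

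All 9 members are named, with, per contrast, the 2 companion or partner genes of largest rise and of largest fall among those called, and 3 genes of closest pattern per member, of which 1 is not reported here. Members, lists and gates were chosen with earlier results of these data known. One gated class was renamed after its markers were checked, and ungated cells with at least 500 Igkc UMIs per 10000 were added as a background group after seeing the data; none of those 162 cells held a Pdgfra UMI, which allows up to 1.85%. Alternatives were RLE scaling, DESeq2 1.42.0, no count filter, no block, other gate levels, other cell filters, thinned cells and leaving out each replicate. The fit was tested on simulated data.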

Additional observations from a re-analysis of the deposited data

How the results depend on the processing

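Across the alternatives, fitted log2 differences of called members kept their direction and call in 346 cases and lost the call in 32, named beside the results where 1 library or the block decided them, and none turned. Of the members not called, 231 values kept their side, 15 gained a call and 42 turned sign. The cause was not tested. Without the library block (no replicate block), the pairing by library being the design used, Nes in CAR-like, Ctsk in fibroblast-like and Pdgfra between tendon-like and CAR-like cells lost their calls, Mcam in CAR-like cells gained one, and Thy1 was 0.10 in CAR-like, Ctsk 0.038 and Nes -0.073 in osteoblast-like cells and Nes -0.050 between tendon-like and CAR-like cells. Mcam in CAR-like cells passed under 8 alternatives in all. Cells thinned to 1000 UMIs, with 5552 genes tested, gave 2027, 2089, 596, 454, 2540 and 918 called genes in the CAR-like, osteoblast-like, tendon-like, fibroblast-like and cartilage-like contrasts and between tendon-like and CAR-like cells. With replicates left out in turn these counts ranged from 2591 to 3719, 1684 to 5587, 806 to 2483, 428 to 1900, 3789 to 6859 and 1033 to 2399, the lowest each time without replicate 2. These fits tested 15519, 9534 and 9532 genes without replicates 1, 2 and 3, so their counts are not on 1 footing with each other or with the 10632 genes of all libraries.

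Uncalled members that turned sign when replicates were left out ranged in CAR-like cells from -6.93 to 0.0044 for Thy1; in osteoblast-like cells from -1.64 to 0.35 for Thy1, -0.060 to 0.060 for Ctsk, -0.52 to 1.00 for Mcam and -0.013 to 0.56 for Nes; in tendon-like cells from -0.18 to 0.29 for Cd200; in fibroblast-like cells from -0.45 to 0.16 for Cd200, -0.15 to 0.37 for Eng, -0.038 to 0.47 for Nes and -0.21 to 0.74 for Nt5e; in cartilage-like classes from -0.056 to 0.18 for Cd200 and -0.34 to 0.029 for Eng; and from -0.90 to 1.23 for Nes between tendon-like and CAR-like cells. Ctsk in osteoblast-like cells was 0.010 with RLE, 0.0068 with DESeq2, 0.23 with gates halved and 0.18 with double-gated cells kept. Cd200 in cartilage-like classes was -0.056 with RLE, -0.019 with DESeq2, -0.22 with gates halved, -0.20 with double-gated cells, -0.015 without doublet removal, -0.017 without the cell filter and -0.21 with thinned cells. Nes in fibroblast-like cells was -0.0088 without the count filter, -0.34 with gates doubled, -0.13 without doublet removal and -0.14 without the cell filter, and Cd200 was 0.0098 with gates halved and 0.62 with double-gated cells. Doubled gates gave -0.010 for Eng in osteoblast-like cells, -0.082 for Mcam in tendon-like cells and 0.10 for Nt5e between tendon-like and CAR-like cells, the last at 1.08 with double-gated cells. Halved gates gave 0.61 for Thy1 in osteoblast-like cells, -1.29 for Mcam in tendon-like cells and -0.42 for Nes between tendon-like and CAR-like cells. Thy1, Mcam, Nes and Eng had sums of under 10 UMIs in several class sums, and how far depth or low expression set these was not tested.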
